A study of Mus musculus with 3 samples.

Results

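The proteasome genes described here are those whose symbol begins with Psma, Psmb, Psmc, Psmd, Psme, Psmf or Psmg, read only from probe sets annotated to a single symbol. The rule found 47 genes with 56 probe sets, of 8221 genes with 10298 such probe sets on the array. It took 7 alpha and 7 constitutive beta subunits of the core, 3 immunoproteasome beta subunits, 6 ATPases, 3 other base subunits, 8 lid subunits, 7 assembly chaperones and 5 genes named as activators or activator partners. It also took Psmc3ip, which serves meiotic recombination and is no proteasome subunit. No Psmf probe set met the rule.

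RNA came from LNC, a malignant B-1 cell line established from the lymph node of a New Zealand Black (NZB) mouse aged 1 year, measured on 3 Affymetrix-type expression arrays with 1 array per group. The first group was given 20 µM of an IL-10 antisense oligonucleotide, the second 20 µM of a scrambled form of it, and the third was left untreated, with collection of RNA at 24 h. All groups are 1 cell line, and how many cultures an array stands for was not given in the sources used here. With 1 array per group there was no replicate, no test was run, and every difference below describes these 3 arrays only. The comparison asks how transcripts of the protein degradation machinery stood when IL-10, a growth factor that malignant B-1 cells make for themselves, was targeted.

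The proteasome is the protease that degrades proteins tagged with ubiquitin. Its barrel-shaped 20S core has outer rings of alpha subunits, which gate the entry, and inner rings of beta subunits, of which Psmb5, Psmb6 and Psmb7 carry the catalytic sites. The 19S cap has a base, whose ATPases unfold substrates, and a lid, which removes ubiquitin. Lymphoid cells also express Psmb8, Psmb9 and Psmb10, which replace the catalytic beta subunits in the immunoproteasome and alter the peptides offered to MHC class I. Plasma cells and other antibody-making cells are known for a heavy proteasome load.

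Values are scaled intensities on a linear scale, and a floor of 595.9 marks the level below which a signal could not be told from noise. Of the 47 genes, 39 were above the floor on all 3 arrays, 2 passed it through a single array (Psmc4 and Psme2), and 6 had no probe set above it. The last 6 were Psmc1, Psmc5, Psmd2, Psmd6, Psmg3 and Psmc3ip. Intensities of different probe sets are not comparable with each other, so only differences between arrays are read. As a measure of scatter, a yardstick was taken from the 2 control arrays: 95% of the 300 probe sets closest in level differed by less than it. It contains any effect of the scrambled oligonucleotide.

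Il10 itself read 13946 on the antisense-labelled array, 5616 with the scrambled oligonucleotide and 5164 in untreated cells. It was thus 2.48-fold higher than scrambled and 2.70-fold higher than untreated. The targeted RNA was not lower under its label, and each direction drawn from that array rests on the label. Of 7 B cell marker genes on the array, 6 passed the filter and Cd22 was at the floor. The B-1 marker Cd5 was at the floor on every array, and so were the 5 T cell markers. At a common level 3 of the 6, Cd74, Cd79a and Ms4a1, were lower on the antisense-labelled array than on both controls by more than the yardstick, and with spike-in scaling none of these 3 was past it. Ighm was lowest on the antisense-labelled array too, while Cd79b was highest there and Ptprc lay between the controls. The summed intensity of the B cell markers, most of it from the very bright Ighm and Cd74, was 265236 on the antisense-labelled array, 354378 with the scrambled oligonucleotide and 312311 in untreated cells. That of the T cell markers was at most 345 on any array. Among macrophage and granulocyte markers 2 of 5 passed the filter, each through a single array, and among stroma markers 1 of 4, Col1a1, with at most 1006 on any array. The erythroid marker Hba-a1 read 2233 on the antisense-labelled array, 560 with the scrambled oligonucleotide and 1628 in untreated cells, and was past its yardstick against scrambled. The spike-in controls used were the 6 probe sets named BioB, BioC, BioDn or CreX that stayed below 50000 on every array. They averaged a log2 difference of -0.63 on the antisense-labelled array against untreated and -0.51 against scrambled. Whether these controls track the amount of RNA per cell was not tested. The 18S ribosomal RNA signal at the 3-prime end was 8.13 times that at the 5-prime end on the antisense-labelled array, 4.48 times with the scrambled oligonucleotide and 1.72 times in untreated cells. The 5-prime signal was 640 on the antisense-labelled array, near the floor, so that ratio is imprecise. It was 2435 with the scrambled oligonucleotide and 4465 in untreated cells. For Gapdh the ratio of 3-prime to 5-prime signal lay between 0.931 and 1.01. The part of these array differences in the results below was not tested. In bulk RNA, fewer cells of a kind and less RNA per cell cannot be told apart.

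Transcripts of the core and of the 19S cap were mostly slightly lower on the antisense-labelled array than on the control arrays with the arrays set to a common level, and higher than both with scaling to the spike-in controls. Those of the activators Psme3 and Psme4 were slightly higher. Over the 39 genes above the floor, the median log2 difference was -0.12 against scrambled and -0.12 against untreated, and that between the scrambled and untreated arrays was -0.005. Over all 3518 genes above the floor each of these medians was 0.01. In 21 of the 39 proteasome genes (53.8%) the lowest of the 3 values was on the antisense-labelled array, beside 36.0% of all genes above the floor. The lowest value was on the scrambled array in 14 of them, beside 32.5% of all genes, and on the untreated array in 4 of them, beside 31.5%. These comparisons share arrays, so the counts are not independent of each other. Spike-in scaling leaves none of the genes lowest on the antisense-labelled array. It raises all values above the floor on that array, by 0.51 against scrambled and 0.63 against untreated on the log2 scale. How many of all genes are then lowest or highest there was not counted. Orders of arrays with that scaling are thus not read as particular to any group of genes.

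The differences were small for single genes. Of 45 member probe sets past the filter, 1 was at least 2-fold apart between the antisense-labelled array and the untreated array, beside 4.85% of all probe sets. None was 2-fold apart from the scrambled array, beside 6.02%, and none between the scrambled and untreated arrays, beside 3.1%. No proteasome gene exceeded the yardstick in the same direction against both controls, beside 5.43% of all genes above the floor. Against untreated alone Psmb6 and Psmd8 exceeded it, which is 2 of 39 genes, beside 9.44%. Against scrambled alone Psmc2 and Psmd4 exceeded it, beside 11.4%. Both shares of the proteasome genes are below the background. With spike-in scaling Psmb6, Psmc2 and Psmd4 were within the yardstick against both controls, at 0.07 from untreated for Psmb6, and 0.05 for Psmc2 and -0.007 for Psmd4 from scrambled. Psmd8 was then past it against both, as were 14 of the 39 genes in all (35.9%), beside 26.3% of all genes above the floor with that scaling.

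**Figure D1:**
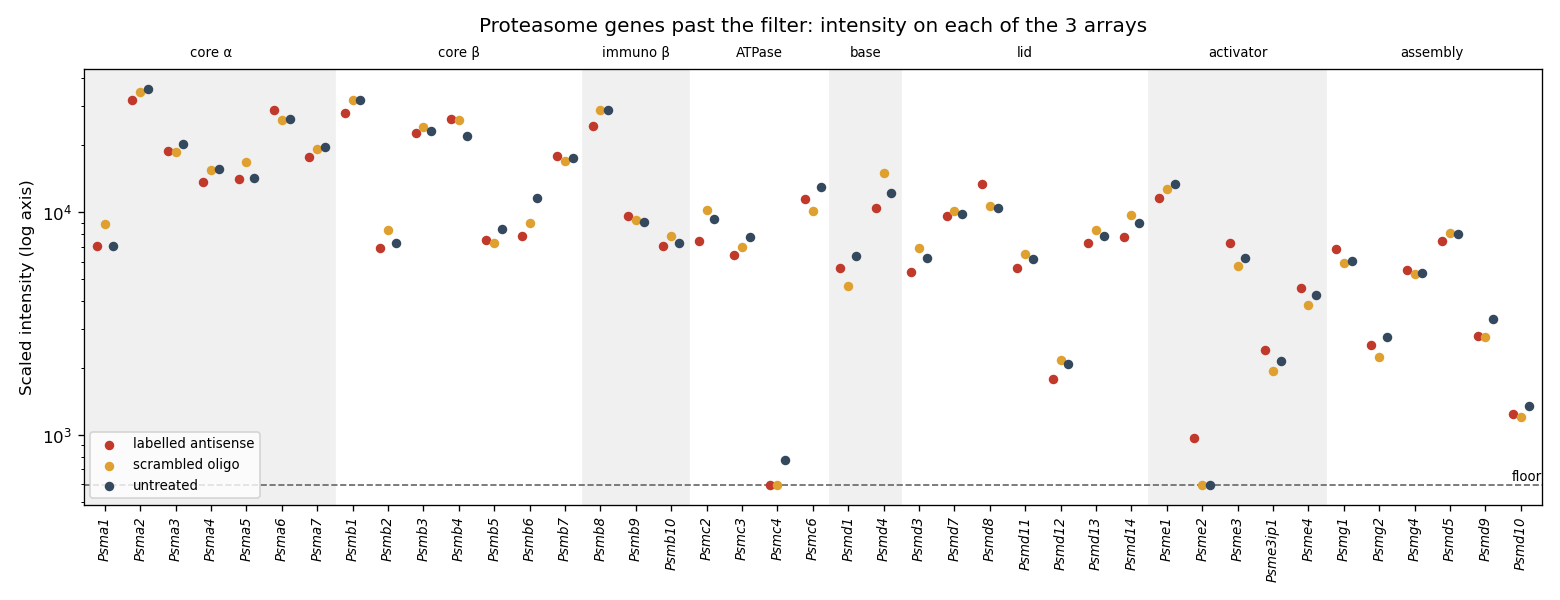
Scaled intensity (log axis) of the 41 proteasome genes past the filter on the antisense-labelled array (red), the scrambled array (yellow) and the untreated array (dark blue), 1 point per array and gene, ordered by role, with values under the floor of 595.9 drawn on it. The 3 points of most genes lie close together. The widest spreads are those of Psme2, which is at the floor on both controls, Psmb6, Psmd4, Psmc2 and Psmd1.

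At a common level Psmb6, Psmc2, Psmd4 and Psmd8 were the genes past the yardstick against 1 control, fewer than the background share, so nothing about regulation is read from their choice. The bases just before their transcription starts are shown as examples of the upstream sequence of these genes. Each run is the 250 bases before the start in RefSeq, build GRCm38.p6, read 5′ to 3′ on the strand of the gene. For Psmc2, which has a second start there, the upstream of both is shown. Capitals mark a match to any of 5 motifs searched on both strands.
Psmb6, chr11:70525107-70525356, plus strand: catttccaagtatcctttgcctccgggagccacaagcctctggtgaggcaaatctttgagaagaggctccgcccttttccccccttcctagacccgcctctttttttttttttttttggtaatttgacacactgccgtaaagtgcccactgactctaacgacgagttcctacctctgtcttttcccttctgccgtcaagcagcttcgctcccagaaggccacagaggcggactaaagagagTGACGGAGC
Psmc2 first start, chr5:21785025-21785274, plus strand: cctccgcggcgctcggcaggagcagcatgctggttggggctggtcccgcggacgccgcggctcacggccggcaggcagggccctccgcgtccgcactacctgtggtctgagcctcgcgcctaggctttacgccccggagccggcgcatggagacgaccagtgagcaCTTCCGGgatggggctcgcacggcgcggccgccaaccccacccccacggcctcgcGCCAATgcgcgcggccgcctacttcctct
Psmc2 second start, chr5:21786497-21786746, plus strand: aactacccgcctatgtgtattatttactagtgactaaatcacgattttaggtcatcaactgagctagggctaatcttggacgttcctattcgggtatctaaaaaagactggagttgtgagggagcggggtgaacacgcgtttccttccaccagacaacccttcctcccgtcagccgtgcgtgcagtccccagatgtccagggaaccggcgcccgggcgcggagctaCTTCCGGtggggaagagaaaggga
Psmd4, chr3:95042615-95042864, minus strand: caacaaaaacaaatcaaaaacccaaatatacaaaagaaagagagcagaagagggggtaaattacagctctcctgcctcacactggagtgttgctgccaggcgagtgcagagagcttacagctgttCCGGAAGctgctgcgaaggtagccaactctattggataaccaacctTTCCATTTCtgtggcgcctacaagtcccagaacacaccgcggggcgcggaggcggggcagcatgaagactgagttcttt
Psmd8, chr7:29180674-29180923, minus strand: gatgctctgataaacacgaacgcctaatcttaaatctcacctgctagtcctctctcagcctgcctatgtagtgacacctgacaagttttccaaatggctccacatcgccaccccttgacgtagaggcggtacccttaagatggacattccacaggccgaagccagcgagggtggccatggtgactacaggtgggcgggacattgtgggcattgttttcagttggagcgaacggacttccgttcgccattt

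The motifs were TGACNNNGC, the core of the antioxidant element that Nrf1 and Nrf2 bind, CCGGAAG for ETS factors, GCCAAT for the CCAAT box, GAAANNGAA for interferon-stimulated elements and TTCNNNGAA for STAT dimers. They were chosen with values of these genes already known. The antioxidant core ended at the base before the start of Psmb6. The ETS motif lay 84 to 78 bases before the first Psmc2 start and 24 to 18 bases before the second, and a GCCAAT lay 29 to 24 bases before the first. In Psmd4 the ETS motif lay 125 to 119 bases and the interferon-type motif 79 to 71 bases before the start. None of the letters searched occurred in the Psmd8 window.

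Windows were read for 40 of the 47 genes, 44 windows in all, and no 2 different motifs overlapped in them. The ETS motif was in 14 of the 44 windows (31.8%), against 6.91% of all 32851 windows of that length. Both Psmc2 windows and that of Psmc3ip are among the 14. The windows of all genes were not matched to these for base composition or expression, so the contrast is not read as particular to proteasome genes. GCCAAT was in 10 (22.7%) against 13.5%, and the antioxidant core in 5 (11.4%) against 10.2%, namely Psmb5, Psmb6, Psmc6, Psmd9 and Psmd12. GAAANNGAA was in 3 (6.82%) against 7.13%, and TTCNNNGAA in 2 (4.55%) against 7.02%, those of Psmb8 and Psmg1. A match is a string of letters and not a measured binding site.

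The alpha subunits of the core did not all share an order of arrays. All 7 were above the floor. At a common level 4 were lowest on the antisense-labelled array, beside 36.0% of all genes. Scaling to the median of the probe sets kept makes this count 6, and spike-in scaling leaves none. The median log2 difference was -0.13 against scrambled and -0.11 against untreated. The range was -0.33 to 0.14 against scrambled and -0.20 to 0.14 against untreated. None passed the yardstick. Psma4, a ring subunit, read 13667 on the antisense-labelled array, 15473 with the scrambled oligonucleotide and 15715 in untreated cells. Psma2 read 31829, against 34884.5 with the scrambled oligonucleotide and 35893 in untreated cells. Psma7, another ring subunit, read 17647.5 (antisense-labelled), 19185 (scrambled) and 19681 (untreated). In these 3 genes both controls lay close together and above the antisense-labelled array.

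Other alpha subunits had another order. Psma1 read 7074 on the antisense-labelled array, 8900.3 with the scrambled oligonucleotide and 7071 in untreated cells. Psma5 read 14108 (antisense-labelled), 16769.8 (scrambled) and 14260.3 (untreated). The scrambled array stood above the other 2, which lay within a log2 difference of 0.02 of each other. Psma6 was the single alpha subunit highest on the antisense-labelled array, at 28787 against 26124 with the scrambled oligonucleotide and 26212 in untreated cells. Psma3, read by a family probe set that can bind more than 1 transcript, read 18794.5 (antisense-labelled), 18593 (scrambled) and 20323 (untreated), with the oligonucleotide-treated arrays below the untreated one.

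Among the constitutive beta subunits, Psmb6 differed most. It encodes the beta1 subunit, which cuts after acidic residues, and read 7871 on the antisense-labelled array, 8958 with the scrambled oligonucleotide and 11595 in untreated cells. Its log2 difference was -0.56 against untreated, past the yardstick of 0.37, and -0.19 against scrambled, within it. The scrambled array itself stood at -0.37 from untreated, so both oligonucleotide-treated arrays were below the untreated one.

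The other catalytic beta subunits were closer. Psmb5, whose beta5 site has the chymotrypsin-like activity that bortezomib blocks, read 7549.8 on the antisense-labelled array, 7275 with the scrambled oligonucleotide and 8425 in untreated cells. Psmb7, with the trypsin-like beta2 site, read 17996 (antisense-labelled), 17096 (scrambled) and 17540.4 (untreated) and was highest on the antisense-labelled array by 0.07 against scrambled and 0.04 against untreated on the log2 scale. Both were read by shared or family probe sets. A second Psmb5 probe set was below the floor.

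Of the non-catalytic beta subunits, Psmb1 read 28074.5 on the antisense-labelled array, 32058 with the scrambled oligonucleotide and 32101 in untreated cells. Its family probe set read 25061 (antisense-labelled), 24684 (scrambled) and 26901 (untreated), so the probe sets of Psmb1 placed the scrambled array differently. Psmb2 read 6906 (antisense-labelled), 8305 (scrambled) and 7276 (untreated), highest on the scrambled array. Psmb3 read 22846 (antisense-labelled), 24216 (scrambled) and 23159.8 (untreated), with all 3 values close. Psmb4, read by a family probe set, stood apart in order. It had 26283 on the antisense-labelled array and 25986 with the scrambled oligonucleotide, both above the 21973 of the untreated array. Its log2 difference of 0.26 from untreated was within the yardstick of 0.33. The other Psmb4 probe sets were below the floor. Over the 7 constitutive beta genes, 4 were lowest on the antisense-labelled array at a common level, beside 36.0% of all genes. With spike-in scaling none was lowest there. The medians were -0.08 against scrambled and -0.075 against untreated. Psmb4, Psmb5 and Psmb7 were read by shared or family probe sets. Over the other 4 genes the medians were -0.19 against scrambled and -0.13 against untreated.

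The immunoproteasome subunits did not share a direction at a common level. All 3 were highest on the antisense-labelled array with spike-in scaling, which raises all genes there. Psmb8, the beta5i subunit, read 24329.7 on the antisense-labelled array, 28795 with the scrambled oligonucleotide and 28847 in untreated cells. The control values were nearly equal, and the log2 difference, -0.24 from the scrambled array and -0.25 from the untreated one, was within the yardstick of 0.33. Psmb9, the beta1i subunit, read 9623 (antisense-labelled), 9198 (scrambled) and 9018 (untreated), highest on the antisense-labelled array by 0.07 against scrambled and 0.09 against untreated. Psmb10, the beta2i subunit, read 7074 (antisense-labelled), 7849 (scrambled) and 7267 (untreated), with the scrambled array highest.

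Each immunoproteasome subunit was set against the constitutive subunit whose place it takes, as the difference between their log2 differences. For Psmb9 and Psmb6 this was 0.25 between the antisense-labelled array and the scrambled array and 0.65 between it and the untreated array, and 0.40 between scrambled and untreated. Psmb9 thus stood higher relative to Psmb6 on both oligonucleotide-treated arrays, with Psmb6 the gene of the pair that varied. For Psmb10 and Psmb7 it was -0.22 from scrambled, -0.08 from untreated and 0.15 between the controls. For Psmb8 and Psmb5 it was -0.30 from scrambled, -0.09 from untreated and 0.21 between the controls. In these pairs the immunoproteasome subunit stood lower relative to its partner on the antisense-labelled array than on either control, opposite to the Psmb9 pair. Against untreated, -0.08 and -0.09 were smaller in size than the 0.15 and 0.21 between the controls. No yardstick was set for such pair values, and Psmb5 and Psmb7 were read by shared or family probe sets. These values do not depend on how the arrays are scaled by a constant.

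**Figure D2:**
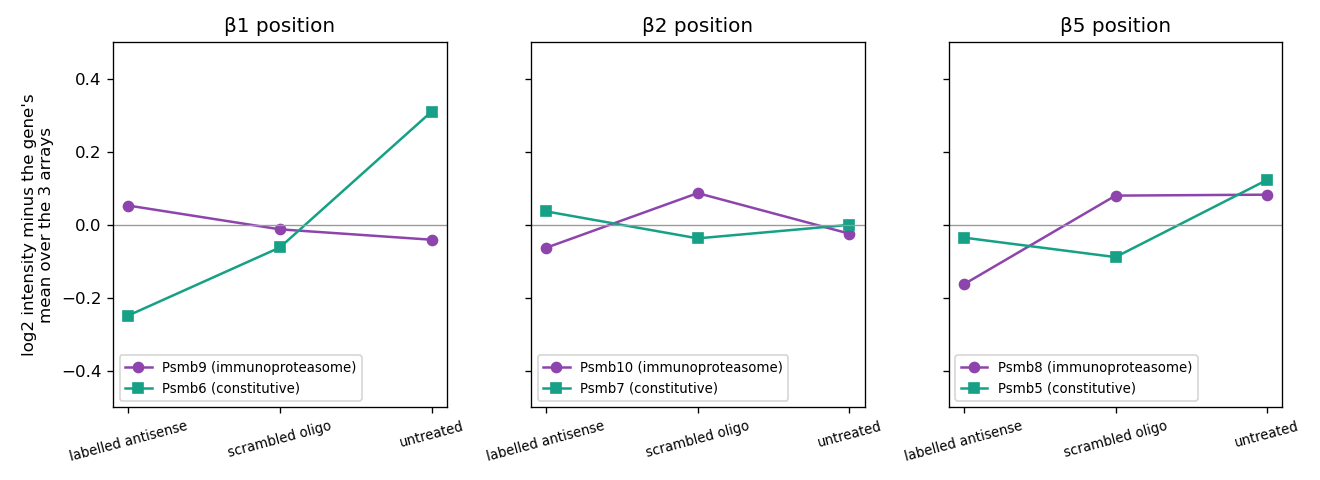
Log2 intensity of each immunoproteasome subunit (purple circles) and of its constitutive partner (green squares) minus that gene's mean over the 3 arrays, in 1 panel per catalytic position, with 1 point per array and lines to join the points of a gene. Psmb6 spans a log2 range of 0.56, while Psmb9 spans 0.09.

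Genes that serve peptides to MHC class I beside the immunoproteasome were read from a list of 12 on the array, of which 8 passed the filter. At a common level 5 of the 8 were lowest and 2 highest on the antisense-labelled array, and with spike-in scaling all 8 were highest there. None passed the yardstick against both controls. Over all genes past the filter, 31.6% were lowest and 37.4% highest there at a common level. The shares with spike-in scaling, which raises all genes there, were not counted. Tap1, which pumps peptides into the endoplasmic reticulum and lies next to Psmb9 in the genome, read 3368 on the antisense-labelled array, 3064 with the scrambled oligonucleotide and 3096 in untreated cells. Its log2 difference was 0.14 against scrambled and 0.12 against untreated. Tapbp, the tapasin gene that loads peptides, read 8917 (antisense-labelled), 11215 (scrambled) and 13229.7 (untreated), and its log2 difference of -0.57 from untreated was past the yardstick of 0.35, where spike-in scaling gives 0.06. A dimmer Tapbp probe set had the same order, at 2663 (antisense-labelled), 3566 (scrambled) and 3645.5 (untreated). Irf8, an interferon-regulated transcription factor, read 1802 (antisense-labelled), 1157 (scrambled) and 967 (untreated), within its wide yardstick of 1.23. Irf1, which drives Psmb9 in interferon-treated cells, read 2404 (antisense-labelled), 2762 (scrambled) and 2514 (untreated).

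All 3 ATPases of the base that could be read on every array were lower on the antisense-labelled array than on the untreated one at a common level, and spike-in scaling turns their median positive. Psmc2 read 7425 on the antisense-labelled array, 10219.7 with the scrambled oligonucleotide and 9317 in untreated cells. Its log2 difference was -0.46 against scrambled, past the yardstick of 0.37, and -0.33 against untreated, within it. Psmc6 read 11504 (antisense-labelled), 10175 (scrambled) and 12993 (untreated), so the scrambled array was lowest.

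Psmc3 was read by 3 probe sets, and all 3 were lowest on the antisense-labelled array and highest on the untreated array. The brightest read 6410.0 (antisense-labelled), 7004 (scrambled) and 7747 (untreated), which is -0.13 on the log2 scale from scrambled and -0.27 from untreated. The second read 3531 (antisense-labelled), 3752 (scrambled) and 4165 (untreated). The third, a family probe set near the floor, read 738 (antisense-labelled), 1389 (scrambled) and 1591 (untreated), a log2 difference of -0.91 from scrambled and -1.11 from untreated. It was the single proteasome probe set at least 2-fold apart in any comparison, and both differences were within its yardstick of 1.23. Psmc4 was above the floor on the untreated array alone, at 769.

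The other base subunits went different ways. Psmd4, a ubiquitin receptor also called Rpn10, read 10445 on the antisense-labelled array, 14978 with the scrambled oligonucleotide and 12182 in untreated cells. Its log2 difference of -0.52 from scrambled was past the yardstick of 0.35, while that of -0.22 from untreated was within it. The scrambled array stood 0.30 above untreated. Psmd1, the scaffold subunit Rpn2, read 5601 (antisense-labelled), 4657.5 (scrambled) and 6386.5 (untreated), so the scrambled array was lowest, at -0.455 from untreated.

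The lid genes largely shared an order of arrays. At a common level of the arrays, 6 of its 7 genes above the floor were lowest on the antisense-labelled array, beside 36.0% of all genes. The medians were -0.20 against scrambled and -0.13 against untreated, and they turn positive with spike-in scaling. In 6 of the 7 the scrambled array was highest, beside 32.9% of all genes above the floor. Between the scrambled and untreated arrays all 7 lid genes were higher on the scrambled array, by 0.03 to 0.15, with a median of 0.075, beside 51.3% of all genes that were higher there. Psmd14, the deubiquitinase Rpn11 that strips ubiquitin from substrates, read 7764 on the antisense-labelled array, 9714 with the scrambled oligonucleotide and 8925 in untreated cells. Psmd3 read 5409 (antisense-labelled), 6948 (scrambled) and 6249.5 (untreated), the lowest log2 difference of the lid at -0.36 against scrambled. Psmd13 read 7266 (antisense-labelled), 8339 (scrambled) and 7799 (untreated). Psmd11 read 5639.9 (antisense-labelled), 6493 (scrambled) and 6164 (untreated). These structural lid subunits had the same order of arrays as Psmd14, and each difference was within the yardstick.

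Psmd12 had that order too, with 1783 (antisense-labelled), 2169.8 (scrambled) and 2086 (untreated). So had Psmd7, with 9594.5 (antisense-labelled), 10121 (scrambled) and 9843 (untreated). A dimmer second probe set of Psmd11 read 841 on the antisense-labelled array and was below the floor on both controls, opposite to the brighter one. Psmd8, the lid subunit Rpn12, was the exception. It read 13430.4 on the antisense-labelled array, 10690.3 with the scrambled oligonucleotide and 10479 in untreated cells. Its log2 difference was 0.36 against untreated, just past the yardstick of 0.35, and 0.33 against scrambled, just within it. With scaling to the median of the probe sets kept it was within the yardstick against untreated, at 0.319 beside 0.367. With quantile normalization it was within too, at 0.355 beside 0.359. The controls were nearly equal.

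**Figure D3:**
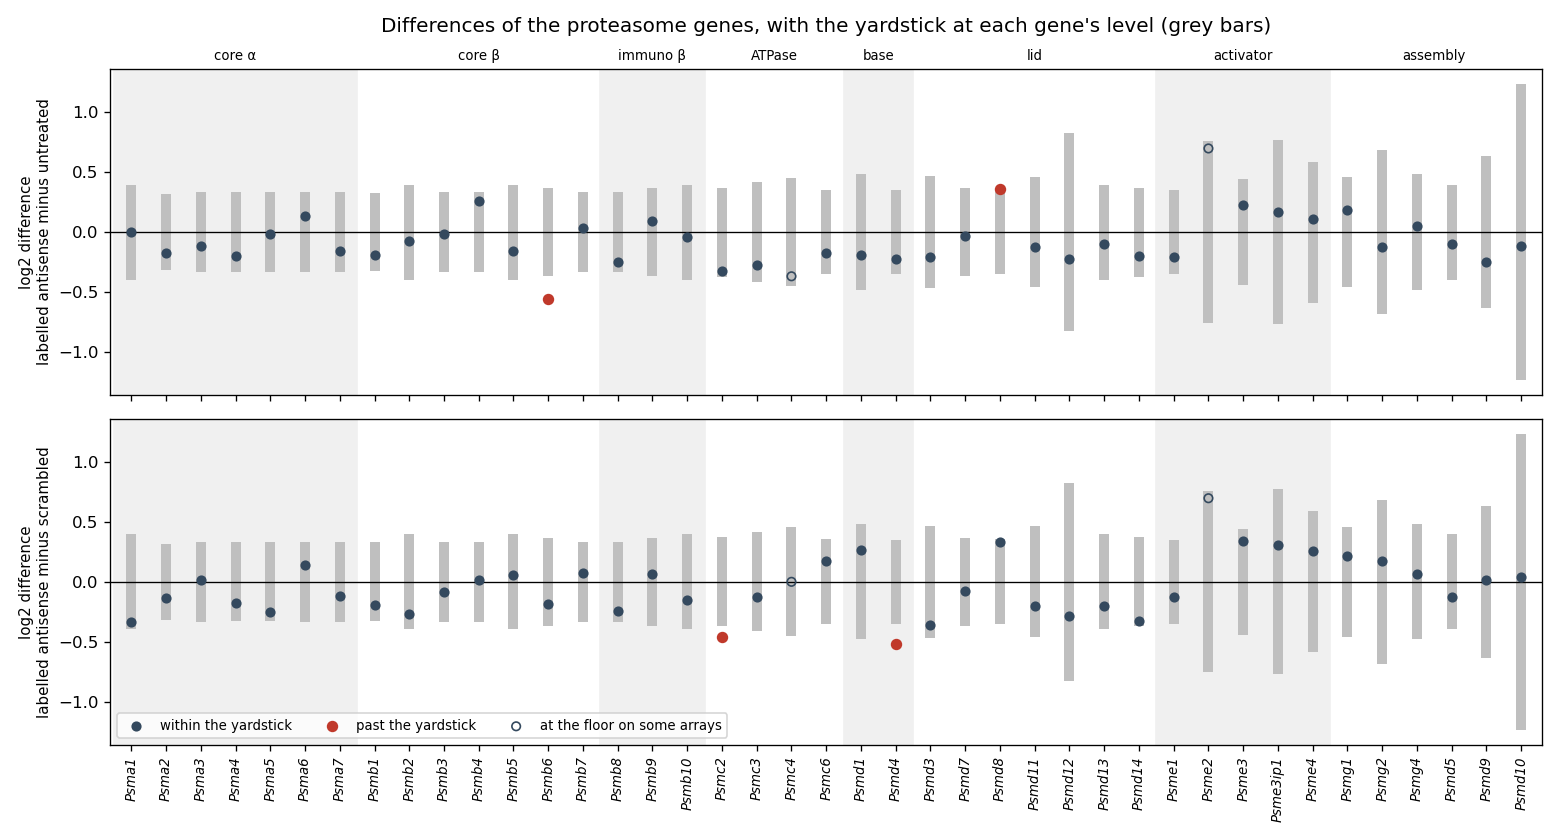
Log2 difference of the antisense-labelled array minus untreated (upper panel) and minus scrambled (lower panel) for each of the 41 proteasome genes past the filter, with arrays set to a common level, 1 point per gene. Grey bars span the yardstick in both directions, red points lie past it and open points mark genes at the floor on some arrays. Psmb6 and Psmd8 lie past it in the upper panel, Psmc2 and Psmd4 in the lower.

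Activators mostly stood on the other side of the controls from the core and cap, at a common level of the arrays, and spike-in scaling puts all of these roles above both controls. Psme3, the nuclear 11S activator PA28-gamma, read 7287 on the antisense-labelled array, 5744 with the scrambled oligonucleotide and 6224 in untreated cells. Psme4, the activator PA200, read 4596 (antisense-labelled), 3850.3 (scrambled) and 4266 (untreated). Both were highest on the antisense-labelled array and lowest on the scrambled one, within the yardstick. The log2 difference of Psme3 was 0.34 against scrambled and 0.23 against untreated, and that of Psme4 was 0.26 against scrambled and 0.11 against untreated. Psme3ip1, a partner protein of Psme3 and no activator itself, had the same order at 2406 (antisense-labelled), 1947 (scrambled) and 2146 (untreated).

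Psme1, the alpha subunit of the interferon-induced 11S activator, went the other way, with 11658 on the antisense-labelled array, 12717 with the scrambled oligonucleotide and 13477.5 in untreated cells. Its partner Psme2 had a single probe set under the rule, which read 965 on the antisense-labelled array and was below the floor on both controls, at least 1.62-fold higher. A brighter probe set shared by Psme2 and Psme2b, outside the rule, read 18248.9 (antisense-labelled), 16171.7 (scrambled) and 16128.5 (untreated), a log2 difference of 0.17 against scrambled and 0.18 against untreated.

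At a common level 5 of the 6 assembly chaperones above the floor were lowest on the scrambled array, beside 32.5% of all genes. This becomes 3 of 6 with spike-in scaling and 4 of 6 with quantile normalization, for which the shares of all genes were not counted. Psmg1, which helps the alpha ring form, read 6868 on the antisense-labelled array, 5935 with the scrambled oligonucleotide and 6038 in untreated cells. Its partner Psmg2 read 2529 (antisense-labelled), 2244 (scrambled) and 2756 (untreated). Psmg4, of the other alpha ring chaperone pair, read 5533 (antisense-labelled), 5285 (scrambled) and 5342 (untreated), with all 3 arrays close. Psmd9, a chaperone of the base, read 2788 (antisense-labelled), 2755 (scrambled) and 3307.5 (untreated), with both oligonucleotide-treated arrays below the untreated one. Psmd10, the base chaperone gankyrin, read 1243 (antisense-labelled), 1206 (scrambled) and 1347 (untreated). Psmd5 was the one lowest on the antisense-labelled array, at 7439 (antisense-labelled), 8100.0 (scrambled) and 7970.4 (untreated). None passed the yardstick, and the medians were 0.05 against scrambled and -0.11 against untreated.

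**Figure D4:**
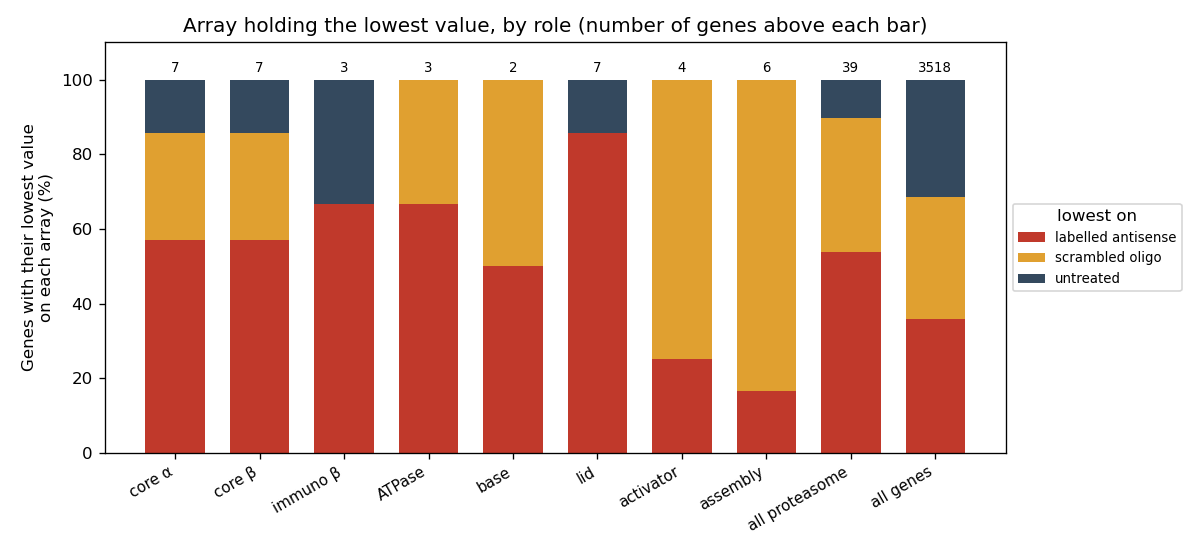
Share of genes (percent) whose lowest value lay on the antisense-labelled array (red), the scrambled array (yellow) or the untreated array (dark blue), by role, for genes above the floor on all 3 arrays set to a common level, with the number of genes above each bar. The lid has 6 of 7 genes lowest on the antisense-labelled array and the assembly chaperones 5 of 6 lowest on the scrambled array, while spike-in scaling leaves no lid gene lowest on the antisense-labelled array and 3 of 6 chaperones lowest on the scrambled array. The last bar gives all 3518 genes, of which 36.0% were lowest on the antisense-labelled array and 32.5% on the scrambled array.

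Set side by side at a common level, the 12 genes of the 19S cap above the floor had medians of -0.20 against scrambled and -0.20 against untreated, and the 14 constitutive core genes had -0.13 against scrambled and -0.09 against untreated. The cap had 9 of 12 genes lowest on the antisense-labelled array and the core 8 of 14, beside 36.0% of all genes. With spike-in scaling neither had any. The 4 genes named as activators or partners had medians of 0.28 against scrambled and 0.14 against untreated, with 3 of 4 highest on the antisense-labelled array, beside 37.9% of all genes above the floor. With spike-in scaling the medians of all roles were positive against both controls. The order of the role medians carries no test, since the roles hold few genes and each array was read once.

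Partners of the proteasome outside the symbol rule included larger differences. Of 12 listed genes on the array, 11 passed the filter, and 3 exceeded the yardstick in the same direction against both controls, namely Uchl5, Vcp and Nfe2l1, beside 4.91% of all genes past the filter. Of the 11, 4 were lowest and 7 highest on the antisense-labelled array at a common level. Over all genes past the filter these shares are 31.6% and 37.4%. With spike-in scaling, which raises all genes on that array, 1 of the 11 was lowest and 9 were highest. The shares of all genes with that scaling were not counted. Uchl5, a deubiquitinase bound to the base, read 1785 on the antisense-labelled array, 3055 with the scrambled oligonucleotide and 3152 in untreated cells. The log2 difference was -0.78 against scrambled and -0.82 against untreated. Vcp, the p97 ATPase that extracts ubiquitinated proteins for the proteasome, read 6711 (antisense-labelled), 9614 (scrambled) and 9696 (untreated). It stood at -0.52 from scrambled and -0.53 from untreated on the log2 scale. In both genes the controls were nearly equal, and 2 other Vcp probe sets were below the floor. With spike-in scaling neither was past the yardstick, with Uchl5 at -0.26 from scrambled and -0.19 from untreated. Vcp was then at -0.006 from scrambled and 0.10 from untreated.

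Nfe2l1, which encodes Nrf1, the transcription factor known to induce proteasome genes, read 1439 on the antisense-labelled array, 128 with the scrambled oligonucleotide and 622 in untreated cells. The scrambled value was below the floor and the untreated one just above it, so the fold is at least 2.41 against scrambled and was 2.31 against untreated, at the edge of its yardstick. With scaling to the median of the probe sets kept, Nfe2l1 was within the yardstick against untreated, at 1.172 beside 1.215. With quantile normalization it was within too, at 1.176 beside 1.214. With spike-in scaling it was past the yardstick against both controls. A second Nfe2l1 probe set was below the floor on the 3 arrays. Usp14, a further deubiquitinase of the cap beside Psmd14 and Uchl5, read 4795 (antisense-labelled), 2771 (scrambled) and 3626 (untreated). It was higher by 0.79 against scrambled, past the yardstick of 0.67, and by 0.40 against untreated, within it. Pomp, the chaperone that completes the core, read 28457 (antisense-labelled), 25190.4 (scrambled) and 23422 (untreated). Sem1, a small lid subunit, read 16859 (antisense-labelled), 18755 (scrambled) and 18871 (untreated). At a common level Sem1 had the direction of the lid and Pomp the opposite one, and spike-in scaling puts both above the controls.

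Of 11 listed proteases outside the proteasome, 7 passed the filter. Of these, 1 was lowest and 4 highest on the antisense-labelled array at a common level. Over all genes past the filter these shares are 31.6% and 37.4%. With spike-in scaling all 7 proteases were highest on the antisense-labelled array. That scaling raises all genes there, and the share of all genes with it was not counted. None passed the yardstick against both controls. Lonp1, the mitochondrial Lon protease, read 1609 on the antisense-labelled array, 433 with the scrambled oligonucleotide and 765 in untreated cells, with the scrambled value below the floor. Its log2 difference was at least 1.43 against scrambled, past the yardstick of 1.15, and 1.07 against untreated, within it. Another Lonp1 probe set was below the floor on every array. Clpp, also a mitochondrial protease, read 9043 (antisense-labelled), 7009.7 (scrambled) and 7986 (untreated), highest on the antisense-labelled array by 0.37 against scrambled and 0.18 against untreated on the log2 scale.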

How the data were processed

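Intensity values of 3 arrays, linear and 1 per probe set, were deposited by the authors in 1 table, with 12654 probe sets each, of which 66 are controls. Between 24.8% and 27.9% of the deposited values per array are at or below 0. The trimmed mean, with 2% cut from each end, is 1500 on every array, so the deposited values had been scaled. The software was not given in the sources used here.

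Each array was scaled to a common trimmed mean over its 12588 other probe sets. The floor was 2 robust standard deviations of the values below 0, and log2 was taken of floored values. A probe set was kept if any array exceeded the floor, which left 6127 probe sets and 4643 genes. A gene was its kept probe set of highest mean level. Symbols came from the platform annotation, and all 47 proteasome genes matched RefSeq by gene identifier. Every proteasome gene was accounted for, with values for those past the filter, for any past 2-fold or the yardstick, and for up to 4 genes of each related list. The calculations used Python 3.11.15, NumPy 2.4.6 and pandas 2.3.3 and were tested on simulated data. The genes and lists were chosen with earlier results of these data known. Precision is limited by the number of arrays. Alternatives changed the scaling, floor, filter, choice of probe sets and yardstick.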

Additional observations from a re-analysis of the deposited data

How the results depend on the processing

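A median was counted as moved when it shifted by 0.1 or more on the log2 scale, and a count when it changed by over 1.5 times. For each of the medians of the proteasome genes past the filter, and for the count lowest on the antisense-labelled array, 11 of 12 alternatives stayed within these limits. The exception was scaling to the 6 spike-in controls, which shifts values above the floor by 0.51 against scrambled, 0.63 against untreated and 0.12 between the controls. The medians then were 0.39 against scrambled, 0.51 against untreated and 0.10 between the controls. Those at a common level over the 41 genes were -0.08, -0.12 and -0.005 in that order. Each median with spike-in scaling lies below its shift by 0.12 or less. The count lowest on the antisense-labelled array was 0 with that scaling, where it was 21 at a common level, and 1 probe set was 2-fold apart from scrambled. With the floor lowered to 298.0, 4 probe sets were 2-fold apart from untreated, 2 from scrambled, and 1 between the controls. With the floor raised to 1191.9, or without suffixed probe sets, 0 were 2-fold apart from untreated, since the Psmc3 family probe set leaves or is held at the floor. Without a filter the median against scrambled was 0.0, so the difference of -0.08 was lost, although it moved by less than 0.1. The count of probe sets past the yardstick against both controls was 0 with other yardstick widths. Alternatives for it in scaling, floor, filter and probe sets were chosen after seeing the data. It was 17 with spike-in scaling and 1, that of Psme2, with the lower floor, and 0 with the other 8. Medians of single roles, which hold few genes, were not counted against these limits. That of the constitutive beta genes against scrambled was -0.084 at a common level and -0.189 without suffixed probe sets, a shift over 0.1. No paired analysis was possible because each group has 1 array. The number of arrays and the signal over background limit what can be read: 6 of 47 genes gave no signal above the floor.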
